A study of Homo sapiens with 6 samples.

Results

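The 9 genes described here encode enzymes that make the building blocks of DNA and RNA, and they were examined in 22Rv1 cells with and without knockdown of ZMYND11. They were chosen by symbol from the 35322 gene symbols counted and comprise RRM2, RRM1, TK1, TYMS, DTYMK, DUT, CAD, PPAT and IMPDH2. All 9 passed the filter on low counts that left 16510 genes for testing. Cells build purine rings on a phosphoribosyl sugar and assemble the pyrimidine ring separately, then reduce ribonucleotides to deoxynucleotides and methylate dUMP to make thymidylate. Salvage kinases return free nucleosides to the same pools. Several of these enzymes, including the small subunit of ribonucleotide reductase, thymidylate synthase and cytosolic thymidine kinase, are known for high expression in cells that replicate their DNA.

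22Rv1, an established line of human prostate carcinoma cells, was grown in RPMI1640 medium with fetal bovine serum. ZMYND11 is a reader of trimethylated lysine on histone H3.3. RNA was sequenced from control cells, labelled wild type and untreated, and from ZM11-kd1 and ZM11-kd2, a pair of ZMYND11 knockdowns, also untreated, with 2 libraries in each of the 3 groups. The labels name no vector, whereas the paper describes lentiviral shRNAs with puromycin selection and says that the sequenced control cells carried control shRNAs. Neither source says which shRNA each knockdown carried or that the libraries of a group came from separate cultures. P-values therefore measure only the spread between these libraries.

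Total counts ranged from 26844128 to 27639713 in control cells, from 33807634 to 38193748 in ZM11-kd1 and from 33760573 to 36040761 in ZM11-kd2. Levels are given as CPM (the share of a library's counts, times 1e+06), with libraries scaled by the TMM method, which takes most genes as unchanged. Scaling by library totals alone moved the median log2 fold change of all genes from -0.03 to -0.38 in ZM11-kd1 and from -0.03 to -0.20 in ZM11-kd2. ZMYND11 itself (chr10:130088-254637) stood at 141 and 135 CPM in control cells, 27.7 and 26.1 CPM in ZM11-kd1 and 21.6 and 22.7 CPM in ZM11-kd2, so the target was lower in every knockdown library. All 10 prostate luminal markers were counted in every group, whereas 4 endothelial markers summed to at most 0.196 CPM, 6 immune markers to at most 4.12 CPM and 6 fibroblast markers to at most 87.3 CPM, this highest value in ZM11-kd1. All 12 proliferation markers fell in each knockdown. Their summed level was 1363 to 1371 CPM in control cells, 132 to 137 CPM in ZM11-kd1 and 196 to 207 CPM in ZM11-kd2, and the part of this shift in the results below was not tested. The direction differs from the growth assays of the paper, which reports more colonies and faster growth of 22Rv1 cells after ZMYND11 silencing. How the marker RNA relates to that growth was not tested. In bulk RNA, fewer cells of one kind cannot be told apart from less RNA of a gene per cell.

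The purpose of the comparisons was to ask which of these enzyme genes differed in RNA level when ZMYND11 was reduced. In ZM11-kd1, 8 of the 9 genes fell and IMPDH2 rose (edgeR quasi-likelihood test, Benjamini-Hochberg adjusted p under 0.05), although the IMPDH2 difference was -0.01 under library totals alone. Of all genes tested, 39.8% fell and 38.2% rose in the same comparison, or 51.0% and 27.8% under library totals alone. In ZM11-kd2, 8 of the 9 genes fell and none rose, against 36.9% lower and 36.5% higher among all genes, or 43.7% and 30.1% under library totals alone. The count of 0 risen genes was the same by edgeR's test at an unadjusted p under 0.05 and by DESeq2's Wald test; PPAT, the gene not called, had an adjusted p of 0.0704. The median log2 fold change of the 9 genes was -1.17 in ZM11-kd1 and -0.85 in ZM11-kd2, and that of all genes was -0.03 in each. Both comparisons used the same control libraries, so the values of one are not independent of those of the other.

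**Figure D1:**
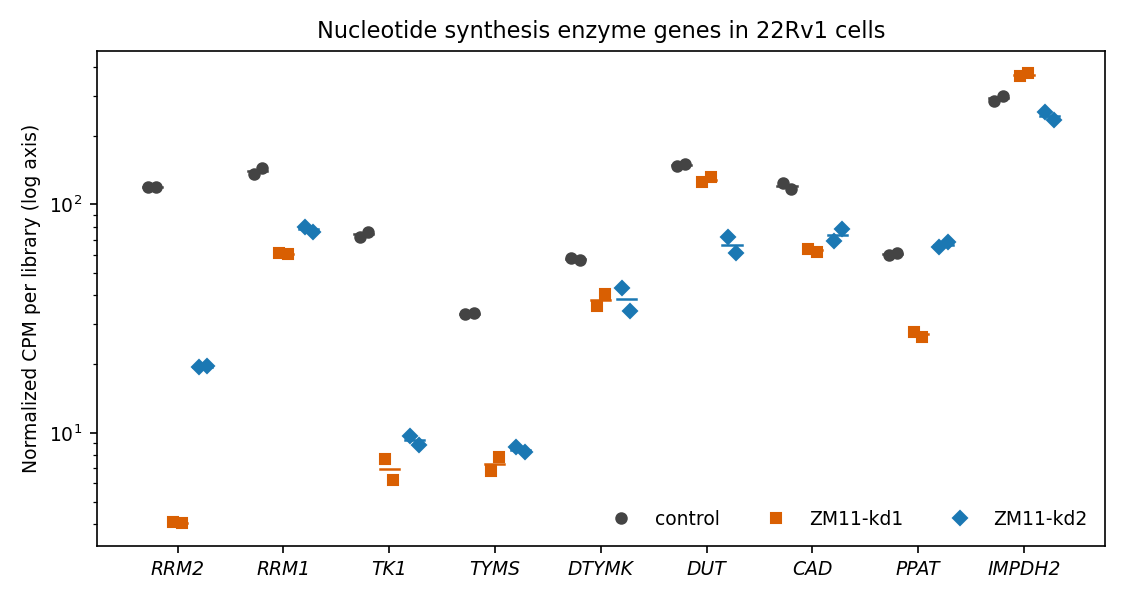
Normalized level in CPM (log axis) of the 9 enzyme genes in every library, with points for libraries and short lines for group means (n = 2). RRM2, TK1 and TYMS show the widest gaps between control cells and both knockdowns, IMPDH2 lies highest in ZM11-kd1, a difference that vanished under library totals alone, and PPAT of ZM11-kd2 lies near its control level.

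**Figure D2:**
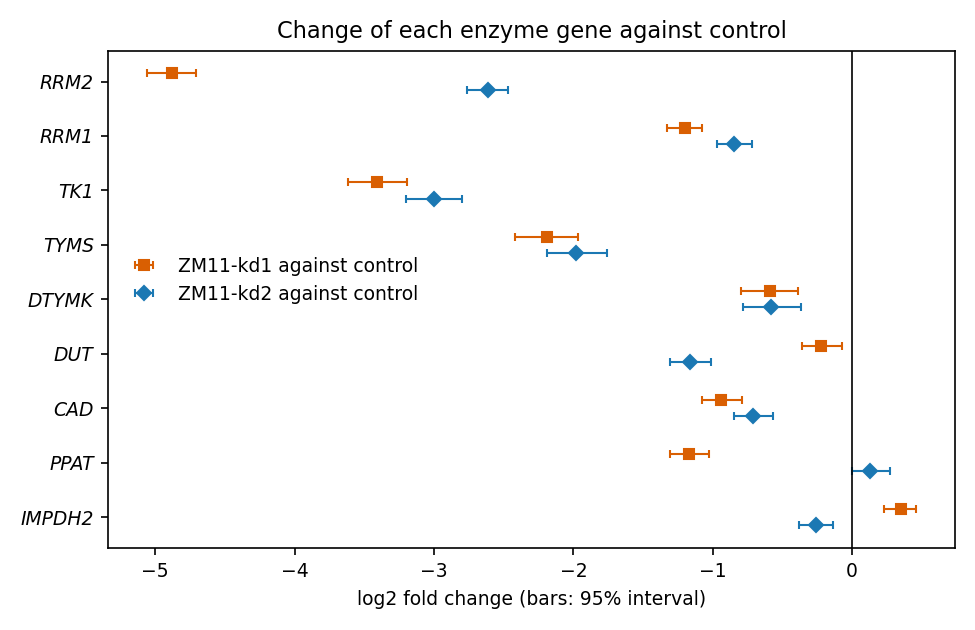
Log2 fold change of each enzyme gene against control with its 95% interval, for ZM11-kd1 (squares) and ZM11-kd2 (diamonds). RRM2 has the largest fall in ZM11-kd1 (-4.88) and TK1 the largest in ZM11-kd2 (-3.0). With library totals alone IMPDH2 moved to -0.01 in ZM11-kd1 and PPAT to -0.04 in ZM11-kd2.

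Ribonucleotide reductase, the enzyme that reduces ribonucleotides to deoxynucleotides, lost far more RNA for its small subunit than for its large one. RRM2 (chr2:10120698-10211725, plus strand) encodes the small subunit that carries the tyrosyl radical and is made in S phase. Its level was 119 and 119.5 CPM in control cells, 4.06 and 4.02 CPM in ZM11-kd1, and 19.4 and 19.6 CPM in ZM11-kd2. The groups did not overlap, and the ZM11-kd1 libraries, with 138 and 119 counts, were the lowest of the 6. The log2 fold change was -4.88 (SE 0.08, adjusted p = 8.97e-15 by edgeR) in ZM11-kd1, or 29.5-fold lower. It was -2.61 (SE 0.07, adjusted p = 3.62e-13) in ZM11-kd2, or 6.12-fold lower. Among the 16510 genes tested, RRM2 ranked 231 from the lowest fold change in ZM11-kd1 and 853 in ZM11-kd2.

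The stretches below come from the RefSeq windows (GRCh38.p14) that run from 250 bases before to 50 bases after an annotated gene start, and they are shown because RRM2 and TK1, the 2 genes with the largest falls, both hold the word CCAAT more than once close to a start, with RRM1 as the partner of RRM2. Capitals mark CCAAT or its reverse complement ATTGG, each stretch is written 5′ to 3′ on the strand of its gene, and none overlaps another. The RRM2 stretches precede the start at base 10122739 of chromosome 2, which lies inside the gene as GENCODE 44 draws it, and the TK1 stretches precede a start at base 78187052 of chromosome 17.
RRM2 chr2:10122608-10122628, plus strand: aggcgcagCCAATgggaaggg
RRM2 chr2:10122638-10122658, plus strand: tggcacagCCAATgggaaggg
RRM2 chr2:10122665-10122685, plus strand: caccaaagCCAATgggaaggg
TK1 chr17:78187117-78187137, minus strand: gggcgctgATTGGccccatgg
TK1 chr17:78187086-78187106, minus strand: ggctcgtgATTGGccagcacg
RRM1 chr11:4094649-4094669, plus strand: gtccatatCCAATggggccca
The CCAAT words of RRM2 shown cover bases -123 to -119, -93 to -89 and -66 to -62 from that start, and these 3 are followed by the same letters, gggaaggg. A further CCAAT, at bases -249 to -245 from the other RRM2 start at base 10122568, is not followed by them. Searched on both strands, CCAAT was in 34.6% of all 35116 windows, in 34.4% of those of genes tested, and in 6 of the 13 windows that 8 of the enzyme genes have. Those windows belong to RRM2, TK1, RRM1, DTYMK and CAD, and DTYMK also holds it more than once. Such a match is a description of letters only.

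RRM1 (chr11:4094707-4138932, plus strand) encodes the large subunit, which holds the active site and the allosteric sites. Its level was 136 and 144 CPM in control cells, 61.3 and 60.5 CPM in ZM11-kd1, and 79.8 and 76.1 CPM in ZM11-kd2, with no overlap between groups. The fall was -1.2 on the log2 scale (SE 0.06, adjusted p = 1.07e-10 by edgeR) in ZM11-kd1 and -0.85 (SE 0.06, adjusted p = 6.37e-09) in ZM11-kd2. The alternative small subunit RRM2B, a known p53 target that supplies deoxynucleotides outside S phase, moved the other way. RRM2B stood at 58.2 and 56.0 CPM in control cells, 96.6 and 95.6 CPM in ZM11-kd1 and 179 and 174 CPM in ZM11-kd2, and rose by 0.75 (adjusted p = 1.09e-08) and 1.63 (adjusted p = 5.56e-12) on the log2 scale, the ZM11-kd1 value being 0.40 under library totals alone and 1.26 with a correction for trends with GC and transcript length.

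Ratios within a library do not depend on the scaling between libraries. Per kilobase of transcript, counts of RRM2 were 0.844 and 0.799 of those of RRM1 in the control libraries, 0.0639 and 0.0640 in ZM11-kd1, and 0.234 and 0.248 in ZM11-kd2. Counts of RRM2 per kilobase were 3.0 and 3.13 times those of RRM2B in control cells, 0.0616 times in both ZM11-kd1 libraries, and 0.159 and 0.165 times in ZM11-kd2. The order of the small subunit genes was thus turned in every knockdown library: RRM2 was the more abundant one in control cells and RRM2B in the knockdowns.

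**Figure D3:**
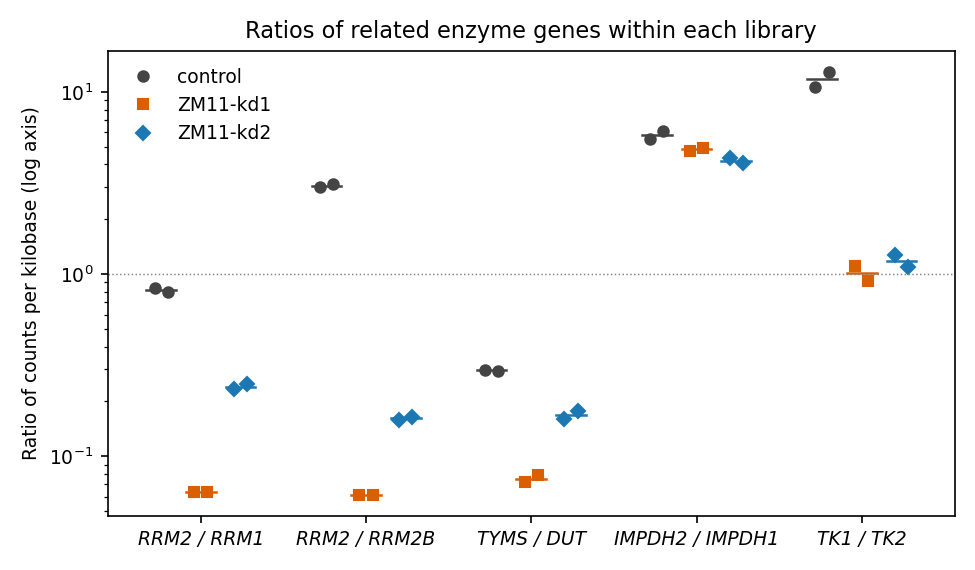
Ratio of counts per kilobase of related enzyme genes within each library (log axis), with points for libraries, lines for group means (n = 2) and a dotted line at a ratio of 1. RRM2 over RRM2B falls from a mean of 3.06 in control cells to 0.0616 in ZM11-kd1 and 0.162 in ZM11-kd2. IMPDH2 over IMPDH1 falls less, from a mean of 5.83 in control cells to 4.84 in ZM11-kd1 and 4.19 in ZM11-kd2.

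All 4 enzyme genes of thymidylate supply fell in each knockdown, by 0.22 (DUT) to 3.41 (TK1) on the log2 scale in ZM11-kd1, and the DUT call in ZM11-kd1 rested on single libraries. Of all 16510 genes tested, 27% were called lower in both knockdowns. TK1 (chr17:78174091-78187233, minus strand) encodes the cytosolic kinase that salvages thymidine. Its level was 72.4 and 75.9 CPM in control cells, 7.68 and 6.22 CPM in ZM11-kd1, and 9.66 and 8.88 CPM in ZM11-kd2. The control libraries stood far above all others. The log2 fold change was -3.41 (SE 0.10, adjusted p = 7.65e-13 by edgeR) in ZM11-kd1 and -3.0 (SE 0.09, adjusted p = 2.81e-12) in ZM11-kd2, that is 10.6-fold and 8-fold lower. The mitochondrial thymidine kinase gene TK2 was at 22.8 and 19.8 CPM in control cells, 23.3 and 23.0 CPM in ZM11-kd1 and 25.7 and 27.5 CPM in ZM11-kd2. In ZM11-kd1 the log2 difference of TK2 was 0.12 (adjusted p = 0.232 by edgeR), or -0.23 under library totals alone and 0.46 with the GC and length correction. It was called higher there in 2 of 15 alternatives. In ZM11-kd2 the difference was 0.32 (adjusted p = 0.005), or 0.15 under library totals alone and 0.47 with that correction. The ZM11-kd2 rise was called in 13 of 15 alternatives. Per kilobase, counts of TK1 were 10.7 and 12.9 times those of TK2 in control cells, 1.11 and 0.912 times in ZM11-kd1 and 1.27 and 1.09 times in ZM11-kd2. By these uncorrected counts the kinase genes came close to the same level in both knockdowns. The transcripts differ in GC content (60.3% for TK1, 50.9% for TK2) and length (1.43 and 4.82 kilobases). Over the alternatives the ZM11-kd1 value of TK1 ran from -4.19 to -3.27 on the log2 scale, and no corrected ratio was computed.

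TYMS (chr18:657653-673578, plus strand) encodes thymidylate synthase, which methylates dUMP to dTMP. Its level was 33.0 and 33.5 CPM in control cells, 6.77 and 7.80 CPM in ZM11-kd1 and 8.68 and 8.20 CPM in ZM11-kd2, with both knockdowns well below control. The log2 fold change was -2.19 (SE 0.10, adjusted p = 7.9e-11 by edgeR), or 4.57-fold lower, in ZM11-kd1 and -1.98 (SE 0.10, adjusted p = 2.98e-10), or 3.94-fold lower, in ZM11-kd2. Exons of TYMS overlap those of ENOSF1 on the opposite strand, which itself changed by -2.09 (adjusted p = 8.73e-12) and -1.52 (adjusted p = 2.68e-10). Whether counting used strand is not given in the sources used here, so reads of the shared stretch cannot be assigned to one gene and the value of TYMS is uncertain to that extent.

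DTYMK (chr2:241675747-241686944, minus strand) encodes thymidylate kinase, where the de novo and salvage routes to dTTP meet. Its level was 58.1 and 57.3 CPM in control cells, 35.9 and 40.6 CPM in ZM11-kd1 and 43.1 and 34.2 CPM in ZM11-kd2. The knockdown libraries lay below both control libraries but spread over each other. The log2 fold change was -0.59 (SE 0.10, adjusted p = 5e-05 by edgeR) in ZM11-kd1 and -0.58 (SE 0.10, adjusted p = 7.31e-05) in ZM11-kd2. The ZM11-kd1 value was -0.95 under library totals alone and -1.43 with the GC and length correction.

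DUT (chr15:48331011-48343373, plus strand) encodes dUTPase, which removes dUTP and yields the dUMP that thymidylate synthase uses. Its level was 147 and 151 CPM in control cells, 125 and 131 CPM in ZM11-kd1 and 72.1 and 61.2 CPM in ZM11-kd2, so that the ZM11-kd2 libraries were the lowest. Near-identical copies of DUT listed among the symbols held at most 2.81% of its counts. The difference was -0.22 (SE 0.07, adjusted p = 0.0101 by edgeR) in ZM11-kd1 and -1.16 (SE 0.07, adjusted p = 1.97e-09) in ZM11-kd2. The small ZM11-kd1 difference lost its call without control replicate 2 (-0.20, adjusted p = 0.0752) or without ZM11-kd1 replicate 1 (-0.18, adjusted p = 0.101), and was -0.57 under library totals alone. Over all alternatives the adjusted p of the DUT difference in ZM11-kd1 ran from 8.34e-07 to 0.101. Per kilobase, counts of TYMS were 0.299 and 0.294 of those of DUT in control cells, 0.0718 and 0.0789 in ZM11-kd1 and 0.160 and 0.178 in ZM11-kd2.

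The windows of TYMS and DUT held a word that begins with TTT, goes on with 2 letters that are each C or G, and ends with CGC, a form known to be bound by E2F factors. The stretches are shown because no other window of the enzyme genes held this word. Capitals mark the word or its reverse complement, and the stretches of DUT overlap.
TYMS chr18:657606-657629, plus strand: ggacggccGCGGGAAAaggcgcgc
DUT chr15:48332147-48332170, plus strand: cggggctgGCGGGAAAtttcggtt
DUT chr15:48332162-48332185, plus strand: atttcggtTTTGGCGCgctccctg
The word of TYMS covers bases -39 to -32 from the start at base 657653, and those of DUT cover bases -42 to -35 and -27 to -20 from a start at base 48332197. Searched on both strands, the word was in 3.31% of all windows in 4.57% of those of genes tested, and in 2 of the 13 windows of the enzyme genes. No relation of the word to the changes was tested. RRM2 and TK1 had no match to it in their windows. The word GGGCGG was in 45.0% of all windows, in 63.0% of those of genes tested, and in 10 of the 13, which belong to 7 of the enzyme genes.

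CAD, PPAT and IMPDH2 belong to the de novo pathways of pyrimidines and purines. CAD (chr2:27217369-27243943, plus strand) encodes the protein that carries out the opening steps of pyrimidine synthesis. Its level was 124 and 117 CPM in control cells, 64.1 and 61.6 CPM in ZM11-kd1 and 68.9 and 78.4 CPM in ZM11-kd2, with no overlap between knockdowns and control. The log2 fold change was -0.94 (SE 0.07, adjusted p = 8.19e-09 by edgeR) in ZM11-kd1 and -0.71 (SE 0.07, adjusted p = 2.28e-07) in ZM11-kd2. With the GC and length correction it was -0.66 and -0.42.

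PPAT (chr4:56393362-56435615, minus strand) encodes the amidotransferase of the committed step of purine synthesis. Its level was 60.4 and 61.1 CPM in control cells, 27.6 and 26.3 CPM in ZM11-kd1 and 64.9 and 68.2 CPM in ZM11-kd2. Only the ZM11-kd1 libraries lay below control. The log2 fold change was -1.17 (SE 0.07, adjusted p = 6.09e-10 by edgeR) in ZM11-kd1. In ZM11-kd2 the difference was 0.13 (SE 0.06, adjusted p = 0.0704), which became -0.04 (adjusted p = 0.624) under library totals alone and 0.17 (adjusted p = 0.03) without ZM11-kd2 replicate 1.

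PAICS, which encodes a later enzyme of the purine pathway, lies head to head with PPAT. The RefSeq starts of PPAT at base 56435615 and of PAICS at base 56435752 of chromosome 4 are 137 bases apart. PAICS stood at 252 and 256 CPM in control cells, 84.4 and 83.3 CPM in ZM11-kd1 and 236 and 217 CPM in ZM11-kd2. Its libraries of ZM11-kd1 were thus also the low ones, with a log2 fold change of -1.60 (adjusted p = 4.71e-12 by edgeR), or -0.97 with the GC and length correction. The ZM11-kd2 value of PAICS was -0.17 (adjusted p = 0.0121), or 0.02 with that correction. The word CACGTG is an E-box known to be bound by MYC and MAX. Among the enzyme genes with a window, which IMPDH2 lacked, the word was found for PPAT alone. The word was in 7.26% of all windows and in 8.89% of those of genes tested. It is shown because the same letters lie in the windows of both neighbours, at bases -182 to -177 from the PPAT start and at bases 40 to 45 from the PAICS start.
PPAT chr4:56435784-56435805, minus strand: gagatttcCACGTGcagcaaat

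IMPDH2 (chr3:49024325-49029447, minus strand) encodes the inosine monophosphate dehydrogenase that commits purines to guanine nucleotides. Its level was 284 and 299 CPM in control cells, 364 and 376 CPM in ZM11-kd1 and 254 and 234 CPM in ZM11-kd2. By these values ZM11-kd1 was highest and ZM11-kd2 lowest. In ZM11-kd1 the log2 difference was 0.35 (SE 0.06, adjusted p = 4.77e-05 by edgeR), but it was -0.01 (adjusted p = 0.872) under library totals alone and -0.03 (adjusted p = 0.582) with the GC and length correction, and over all alternatives its adjusted p ran from 6.97e-12 to 0.872. In ZM11-kd2 it was -0.26 (SE 0.06, adjusted p = 0.000797), or -0.43 under library totals alone. The paralog IMPDH1 was at 80.9 and 77.3 CPM in control cells, 122 and 120 CPM in ZM11-kd1 and 92.6 and 91.2 CPM in ZM11-kd2. IMPDH1 differed by 0.61 (adjusted p = 9.45e-08) and 0.22 (adjusted p = 0.00267) on the log2 scale, though by 0.10 in ZM11-kd1 with the GC and length correction and by 0.05 in ZM11-kd2 under library totals alone, and each value was called in 13 of 15 alternatives. Per kilobase, counts of IMPDH2 were 5.54 and 6.11 times those of IMPDH1 in control cells, 4.73 and 4.94 times in ZM11-kd1 and 4.33 and 4.06 times in ZM11-kd2.

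The direct comparison of ZM11-kd2 with ZM11-kd1 asked where the knockdowns differed from each other. In it 5 enzyme genes were higher and 2 were lower in ZM11-kd2, against 34.9% higher and 33.8% lower among all genes tested, or 42.8% and 27.3% under library totals alone. RRM2 was higher in ZM11-kd2 by 2.27 on the log2 scale (95% interval 2.08 to 2.46, adjusted p = 5.08e-11 by edgeR). PPAT was higher by 1.30 (adjusted p = 4.87e-10), or 0.86 with the GC and length correction, and its neighbour PAICS by 1.43 (adjusted p = 5.08e-11). Differences of RRM1 (0.35, adjusted p = 8.7e-05), TK1 (0.41, adjusted p = 0.00525) and CAD (0.23, adjusted p = 0.00826) were smaller. The RRM1 difference was 0.12 (adjusted p = 0.0502) with the GC and length correction, while that of TK1 rose to 1.09. Under library totals alone the differences were 0.54 for RRM1 and 0.41 for CAD. Without ZM11-kd1 replicate 2, neither TK1 (0.27, adjusted p = 0.0788) nor CAD (0.20, adjusted p = 0.0718) was called, and without ZM11-kd2 replicate 2 the CAD difference was 0.14. Over all alternatives the adjusted p ran from 1.55e-07 to 0.0776 for RRM1, from 4.55e-08 to 0.0788 for TK1 and from 1.19e-05 to 0.0718 for CAD. DUT was lower in ZM11-kd2, with a log2 difference of -0.94 (adjusted p = 2.38e-08), as was IMPDH2, at -0.60 (adjusted p = 2.32e-07), or -0.32 with the GC and length correction. TYMS differed by 0.22 (95% interval -0.03 to 0.46, adjusted p = 0.105) and DTYMK by 0.02 (95% interval -0.19 to 0.23, adjusted p = 0.881), and these values reached 0.40 (adjusted p = 0.00381) and 0.72 (adjusted p = 6.75e-08) with the GC and length correction. Without ZM11-kd1 replicate 1 the TYMS difference was 0.11. That of DTYMK was -0.07 without that library and -0.17 without ZM11-kd2 replicate 1, but 0.18 without ZM11-kd2 replicate 2. Over all alternatives their adjusted p ran from 0.00381 to 0.492 and from 6.75e-08 to 0.934. All 12 proliferation markers were also higher in ZM11-kd2 than in ZM11-kd1, with a median log2 difference of 1.12, while the difference of ZMYND11 was -0.28 (adjusted p = 0.00265), or -0.10 and not called under library totals alone (adjusted p = 0.259, the highest over the alternatives, from 2.79e-08) and -0.68 with the GC and length correction. Their part in these differences was not tested.

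Levels of different genes were compared per kilobase of the canonical transcript. In control cells IMPDH2 was highest, at 172 and 181 CPM per kilobase, followed by DUT at 68.5 and 70.6, DTYMK at 55.3 and 54.5, and TK1 at 50.6 and 53.1. RRM1 (43.3 and 45.9 CPM per kilobase) and RRM2 (36.5 and 36.7) came next, then TYMS at 20.5 and 20.7. CAD (17 and 16.1 CPM per kilobase) and PPAT (16.4 and 16.6) were lowest and overlapped. In ZM11-kd1 RRM2 was the lowest of all, at 1.25 and 1.23 CPM per kilobase. Above RRM2 in ZM11-kd1 lay TYMS (4.2 and 4.84 CPM per kilobase) and TK1 (5.37 and 4.34), which overlapped, and then PPAT (7.51 and 7.15). In ZM11-kd2 the lowest 3 were TYMS (5.38 and 5.09 CPM per kilobase), RRM2 (5.95 and 6.0) and TK1 (6.75 and 6.2), without overlap. DTYMK (41.0 and 32.5 CPM per kilobase) and DUT (33.7 and 28.6) overlapped in ZM11-kd2, and IMPDH2 was highest in all 3 groups.

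Beyond the 9 genes, 59 other genes of nucleotide metabolism, in 6 lists, moved in both directions. In ZM11-kd1, 24 rose, 23 fell and 12 were not called, with a median log2 fold change of 0.06. In ZM11-kd2, 23 rose, 26 fell and 10 were not called, with a median of -0.09. These counts stand beside 39.8% lower and 38.2% higher in ZM11-kd1, and 36.9% lower and 36.5% higher in ZM11-kd2, among all genes. Under library totals alone the split was 20 higher and 33 lower in ZM11-kd1 and 16 higher and 31 lower in ZM11-kd2.

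Of 12 genes of de novo purine synthesis, 6 fell and 4 rose in ZM11-kd1, and 5 fell and 6 rose in ZM11-kd2, or 5 and 3 under library totals alone. PFAS, the amidotransferase that follows PPAT by a few steps, fell by 2.94 (adjusted p = 8.32e-13 by edgeR) and by 1.64 (adjusted p = 1.34e-10) on the log2 scale. PRPS2, which makes the phosphoribosyl donor that PPAT uses, fell by 2.02 (adjusted p = 1.49e-11) and by 2.01 (adjusted p = 2.48e-11). The guanylate kinase gene GUK1 rose by 1.28 and 1.66 (adjusted p = 2.99e-10 and 3.75e-11), the ZM11-kd1 value being 0.20 with the GC and length correction. Of 5 genes of pyrimidine synthesis, 3 fell and 1 rose in ZM11-kd1, and 3 fell and 2 rose in ZM11-kd2, or 3 and 2, and 2 and 2, with the GC and length correction. Among them the CTP synthase genes CTPS1 (-1.04 and -1.11 on the log2 scale) and CTPS2 (-0.72 and -1.10) fell, and UMPS, which encodes the last enzyme of UMP synthesis, rose by 0.54 and 0.45 (adjusted p at most 9.71e-06 for all of these). In ZM11-kd1 the value of CTPS2 was -0.36 with the GC and length correction, and that of UMPS was 1.13 with it and 0.18 under library totals alone, where UMPS in ZM11-kd2 was 0.28.

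Of 5 further deoxynucleotide genes, 2 fell and 2 rose in each knockdown, or 3 and 2 in ZM11-kd1 and 3 and 1 in ZM11-kd2 under library totals alone. DCTD, the deaminase that makes dUMP from dCMP, fell by 1.11 and by 1.17 on the log2 scale. NME1, a nucleoside diphosphate kinase, rose by 1.2 and 0.49. These values are uncertain because exons of the NME1-NME2 gene, which had 0 counts in every library, overlap those of NME1 on the same strand. The paralog NME2 is also similar to NME1 in sequence. The ZM11-kd1 value of NME1 was 0.65 with the GC and length correction, and its ZM11-kd2 value ran from 0.13 to 0.78 over the alternatives and was called in 12 of 15. Of 10 genes of folate one-carbon supply, 5 fell and 4 rose in each knockdown, but 6 fell and 2 rose in ZM11-kd1 under library totals alone. The serine hydroxymethyltransferase gene SHMT1, which feeds thymidylate synthesis, fell by 1.67 and by 1.59. The formyltetrahydrofolate dehydrogenase gene ALDH1L1 rose by 2.68 and 2.70, from 11 and 6 counts in control cells to 61 and 53 in ZM11-kd1 and 65 and 62 in ZM11-kd2.

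Of 13 genes of nucleoside and base salvage other than TK1, 9 rose and 1 fell in ZM11-kd1 with a median of 0.82, and 6 rose and 3 fell in ZM11-kd2 with a median of 0.12. Under library totals alone the ZM11-kd1 counts were 9 higher and 4 lower (median 0.47), and those of ZM11-kd2 turned to 3 higher and 5 lower (median -0.05). With the GC and length correction they were 7 higher and 2 lower (median 0.32), and 6 higher and 5 lower (median 0.02). CDA, the cytidine deaminase gene, had 18 and 13 counts in control cells, 42 and 45 in ZM11-kd1 and 152 and 147 in ZM11-kd2, and rose by 1.44 and 3.07 on the log2 scale. The ZM11-kd1 value of CDA was 0.62 with the GC and length correction and was called in 13 of 15 alternatives. The uridine phosphorylase gene UPP1 rose by 1.02 and 0.53, the former being 0.61 with that correction. HPRT1, which salvages hypoxanthine and guanine, rose by 1.01 and 0.30, or 0.65 and 0.13 under library totals alone, and the ZM11-kd2 value was called in 13 of 15 alternatives.

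Of 14 genes of nucleotide breakdown and pool cleaning, 6 fell and 4 rose in ZM11-kd1, and 8 fell and 3 rose in ZM11-kd2, or 8 and 3, and 9 and 3, under library totals alone. NUDT1, which removes oxidized purine triphosphates, fell by 1.93 and by 1.13, and the ecto-nucleotidase gene NT5E fell by 1.65 and by 1.15. DCTPP1, a pyrophosphatase of dCTP, rose by 1.77 and 1.31. With the GC and length correction the ZM11-kd1 values were -2.94 for NUDT1 and 1.09 for DCTPP1. SAMHD1, the deoxynucleotide triphosphohydrolase, was at 28.1 and 26.3 CPM in control cells, 9.57 and 10.2 CPM in ZM11-kd1 and 18.8 and 19.0 CPM in ZM11-kd2, and fell by 1.46 (adjusted p = 2.35e-09 by edgeR) and by 0.53 (adjusted p = 7.92e-05). TLDC2, whose exons overlap SAMHD1 on the opposite strand, had 13 to 552 counts, so the value of SAMHD1 is uncertain in the same way as that of TYMS. Exons of RRM1, DUT, PPAT, IMPDH2 and TK2 also overlap those of other annotated genes, for IMPDH2 and TK2 on the same strand too. Those overlapping genes are not among the symbols counted, so their share of the reads is not known.

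**Figure D4:**
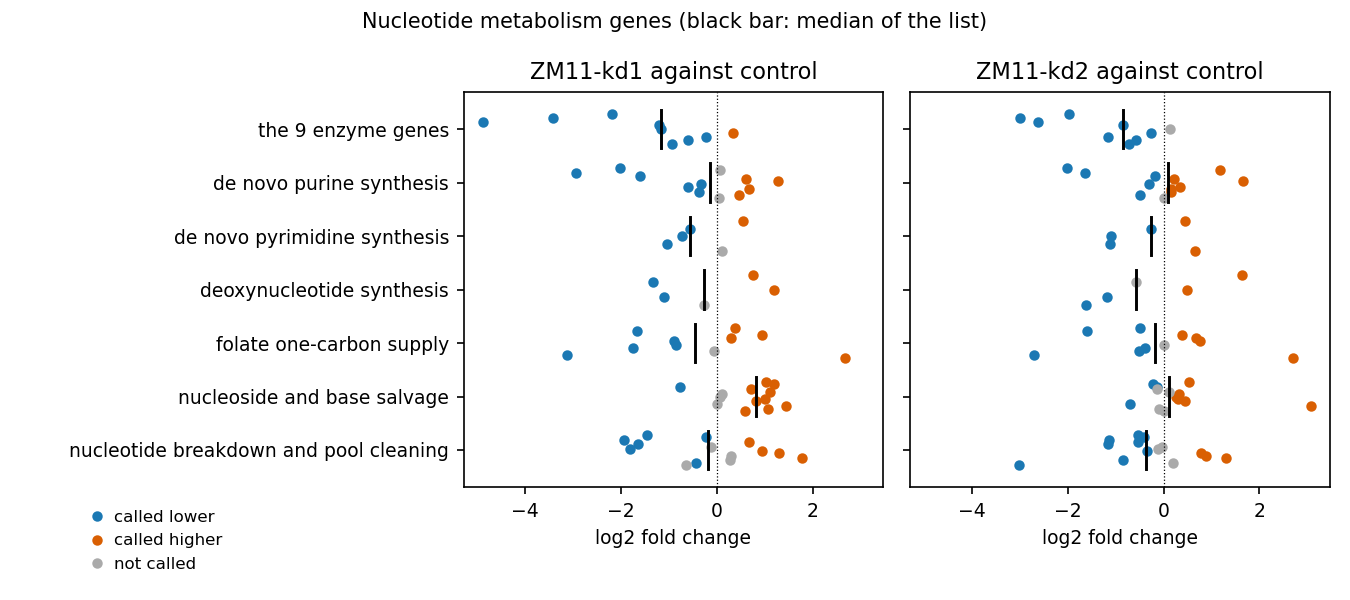
Log2 fold change against control of the 9 enzyme genes and of 59 other nucleotide metabolism genes in 6 lists, for ZM11-kd1 (left) and ZM11-kd2 (right). Blue points were called lower, orange points higher and grey points neither, and black bars mark list medians, -1.17 and -0.85 for the 9 genes. The orange point of the 9 genes in ZM11-kd1 is IMPDH2, which was at -0.01 under library totals alone.

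The genes with the most similar pattern to each member were found by Euclidean distance of log2 CPM centred over the 6 libraries, which share 3 groups, so the distances are descriptions. The nearest of all tested genes was UHRF1 for RRM2 (distance 0.56 log2 units), RAD54L for TK1 (0.28), VRK1 for TYMS (0.24) and SLC19A1 for DTYMK (0.10). For the others it was TAF1D for RRM1 (0.08), AHSA2P for DUT (0.06), AFAP1L1 for CAD (0.06), EDEM1 for PPAT (0.10) and GLYATL1 for IMPDH2 (0.07). The closest pair within the 9 genes was RRM1 and CAD, at 0.34 log2 units, where CAD was neighbour number 240 of RRM1 and RRM1 was number 364 of CAD. For RRM2 the closest enzyme gene was TK1 at 1.95 log2 units, and for PPAT it was RRM1 at 1.12.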

How the data were processed

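The 6 RNA-seq libraries of 22Rv1 cells comprised 2 each of control, ZM11-kd1 and ZM11-kd2, grouped by their labels. Per the methods, the authors trimmed reads with AdapterRemoval and aligned them to hg38 with STAR. The submitters' processing notes name FastQC 0.11.9, STAR 2.7.9a and HTSeq 0.13.5. The table deposited by the authors holds unnormalized read counts for each symbol. The annotation, the use of strand and whether poly(A) selection or rRNA removal was used are not given in the sources used here.

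The counts of all 6 libraries were fitted together in R 4.3.3 by the quasi-likelihood test of edgeR 4.0.16 (TMM scaling, filterByExpr, 3 residual degrees of freedom), and p-values were adjusted over 16510 genes by the Benjamini-Hochberg method, with calls at an adjusted p under 0.05. Depth, from 26844128 to 38193748 counts per library, sets the precision of low counts. The functions were tested on simulated counts with known changes. Lengths and positions came from GENCODE 44, in which 32852 of 35322 symbols were matched by name and 2470 were not. Levels per kilobase use the Ensembl canonical transcript. Promoter stretches came from RefSeq (GRCh38.p14), where windows of 8 of the 9 genes were found and none for IMPDH2. Python 3.11.15 and matplotlib 3.10.9 were used for sequences and figures.

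The text names the 9 genes, ZMYND11, the related enzymes RRM2B, IMPDH1, TK2, PAICS and SAMHD1, up to 3 genes per pathway list with the largest mean change among those called in both knockdowns, and the nearest gene and nearest enzyme gene by expression distance. ENOSF1 was added for its overlap with TYMS. A further gene, 1 in all, that was to be named is left out here. The members and lists were chosen with earlier results of these data known. Alternatives were DESeq2 size factors, library totals, the Wald test of DESeq2 1.42.0, a stricter filter of 10 counts per library, no filter, fitting only the groups compared, a replicate block, a lowess correction (span 0.3) for trends with GC and transcript length, the block with that correction, and each library left out in turn.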

Additional observations from a re-analysis of the deposited data

Results flagged for a closer look

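The knockdowns differed from each other, by edgeR's test of ZM11-kd2 minus ZM11-kd1, in 7 of the 9 enzyme genes. On the log2 scale the difference was 2.27 for RRM2, 1.30 for PPAT, 0.41 for TK1, 0.35 for RRM1 and 0.23 for CAD, all higher in ZM11-kd2. It was -0.94 for DUT and -0.60 for IMPDH2, both lower in ZM11-kd2. Among all genes tested, 34.9% were higher and 33.8% lower in the same comparison.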

How the results depend on the processing

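Of 225 summary counts under the 15 alternatives, 220 stayed within 1.5 times of the reported count. The enzyme genes called higher in ZM11-kd1 went from 1 to 0 under library totals alone, the GC and length correction, and the block with that correction. With a library left out, those called higher in ZM11-kd2 ranged from 0 to 1 (1 without ZM11-kd2 replicate 1), and those higher in ZM11-kd2 than in ZM11-kd1 from 3 to 6 (3 without ZM11-kd1 replicate 2). Of the values of the 9 enzyme genes and ZMYND11 under these alternatives, 6 turned direction. IMPDH2 in ZM11-kd1 was -0.01 under library totals and -0.03 with the correction, with or without the block. PPAT in ZM11-kd2 was -0.04 under library totals. DTYMK between the knockdowns ranged from -0.17 to 0.18 with a library left out, with -0.07 without ZM11-kd1 replicate 1. The cause was not tested. A further 14 of these values crossed the threshold in the same direction. The replicate block, which took the replicate numbers of the titles, gave 12545 calls in ZM11-kd1, 11688 in ZM11-kd2 and 10978 between the knockdowns, against 12882, 12118 and 11355 without it, and changed no call of an enzyme gene. Deviations of replicates with the same number correlated at 0.0062, -0.0264 and -0.044. These values show little shared deviation, but they cannot tell whether such replicates were grown or prepared together. Of the calls among the other 59 pathway genes, 8 of 47 in ZM11-kd1, 4 of 49 in ZM11-kd2 and 5 of 48 between the knockdowns had the other sign under at least 1 alternative. With 2 libraries per group, the spread rests on few values.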
